A study of Mus musculus with 18 samples.

Results

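The 78 genes described here encode mitochondrial ribosomal proteins, measured in the quadriceps and the white adipose tissue of high-fat-fed mice that received vehicle, weekly prednisone or daily prednisone. They are the gene symbols that begin with Mrpl or Mrps and a digit. Transcript values in TPM, a unit scaled to transcript length and to the library's total, were summed per symbol, 5 symbols marked as pseudogenes (-ps) were set aside, and a symbol was kept when it reached 1 TPM in 3 or more libraries of a tissue. All 78 (49 Mrpl and 29 Mrps), of 33641 symbols in the table, passed this level in both tissues, so no member was lost to the filter.

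The mitochondrial ribosome translates the 13 mRNAs of the mitochondrial genome, all of which encode subunits of the respiratory chain or the ATP synthase. Its ribosomal RNAs come from mitochondrial DNA, whereas its proteins are encoded in the nucleus, made in the cytosol and imported. Part of these proteins have counterparts in bacterial ribosomes and the rest occur only in mitochondria. Muscle fibres and adipocytes both depend on respiration, muscle for contraction and adipocytes for the synthesis and oxidation of lipid. Prednisone is a synthetic glucocorticoid that acts through the glucocorticoid receptor.

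All mice were male, wild type and of the DBA/2J strain. The labels put them at about 20 weeks of age and give 12 weeks of high-fat diet before treatment and the same diet during 12 weeks of treatment. Diet and treatment together last longer than this age, so it is not taken here as the age at tissue collection. Prednisone was injected into the peritoneum at 1 mg/kg once weekly or once daily, control mice received vehicle, and both tissues of each of the 9 mice were taken 24 hours after the last injection. Each of the 6 groups of tissue and regimen held 3 libraries of stranded mRNA, 18 in all, and p-values measure the spread between these libraries. The series' design text names fewer adipose daily samples than the labels, and the 3 of the labels were used.

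Depth per library is unknown, because the values are TPM. In adipose tissue 3 libraries (weekly 2, weekly 3 and daily 2) held more than 100 TPM of the muscle creatine kinase gene Ckm. Markers fixed for each tissue matched the labels: the summed TPM of 10 myofibre genes was 120143 to 139697 in muscle against 264 to 1818 in adipose tissue, and that of 10 adipocyte genes was 754 to 1906 against 35316 to 39368. Over the 78 genes, library 3 of a group held the middle value for 33.3% to 43.6%, where equal shares give 33.3%. Counts of called genes are also given without library 3 of every group.

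Promoter sequence was examined first, since many nuclear genes of the mitochondrial ribosome lack a TATA box and are bound by NRF1, by ETS factors such as GABPA, and by YY1. RefSeq (GRCm38.p6) gave windows from 250 bases before to 50 after the start for 69 of the 78 genes. Each motif was searched as exact letters on both strands: NRF1 as GCATGCGC, ETS as CCGGAAG, YY1 as AAGATGGC and TATA as TATAAA. The ETS letters occurred in 26 of the 69 genes (37.7%), against 18.9% of the 10419 tested genes with a window and 38.1% of 63 cytosolic ribosomal protein genes. The YY1 letters occurred in 12 (17.4%) against 5.02%, those of NRF1 in 8 (11.6%) against 5.67%, and those of TATA in 5 (7.25%) against 9.54%. At least 1 of the first 3 motifs was found in 38 of the 69 (55.1%) and in 26.8% of tested genes. These matches are a description of letters in the windows, and genes with several listed starts had several windows.

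**Figure D1:**
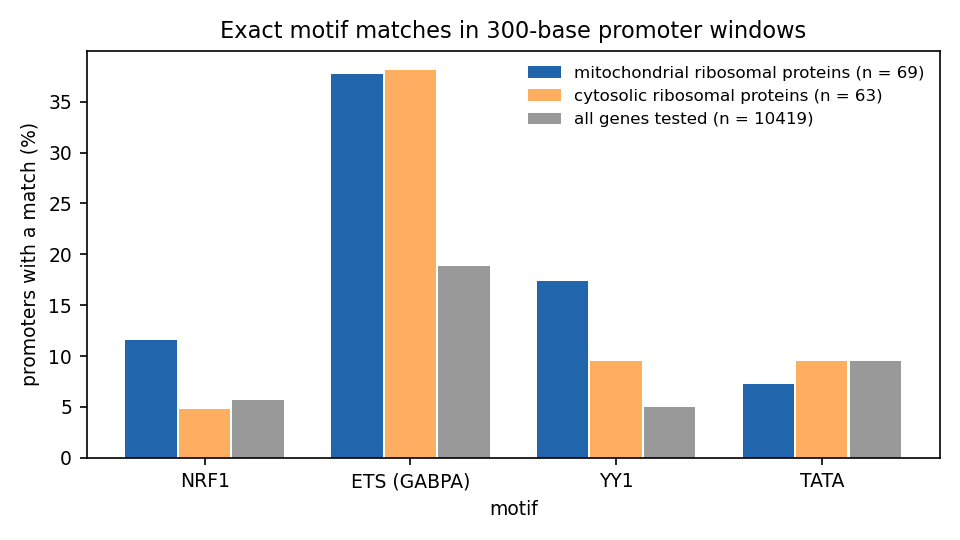
Percent of genes (vertical axis) whose promoter window (250 bases before to 50 after the start) holds an exact match of each of 4 motifs (horizontal axis), for mitochondrial ribosomal proteins, cytosolic ribosomal proteins and all tested genes with a window. The YY1 and NRF1 bars of the mitochondrial ribosomal proteins stand at 17.4% and 11.6% against 5.02% and 5.67% of tested genes, and the ETS bars of both ribosomes are near each other at 37.7% and 38.1%.

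The 250 bases before the start are shown for 6 of the genes on which the results below turn, in lower case with motif matches in capitals. Mrps26 and Mrpl34, the largest falls among called members in muscle under daily prednisone, each held an ETS match, 14 and 37 bases before the start. Mrpl9 held the NRF1 letters on both strands in overlapping positions, 28 and 26 bases before the start, and Mrpl17 held an NRF1 match at 11 bases and an ETS match at 237 bases. Mrpl55, the largest fall among called members in adipose tissue under weekly prednisone, and Mrps6, which differed most between the tissues, had none of the 4 motifs in these bases. They lie at chr2:130563507-130563756 (Mrps26, plus strand), chr8:71464676-71464925 (Mrpl34, plus), chr3:94443086-94443335 (Mrpl9, plus), chr7:105811088-105811337 (Mrpl17, minus), chr11:59202236-59202485 (Mrpl55, plus) and chr16:92058086-92058335 (Mrps6, plus).
Mrps26: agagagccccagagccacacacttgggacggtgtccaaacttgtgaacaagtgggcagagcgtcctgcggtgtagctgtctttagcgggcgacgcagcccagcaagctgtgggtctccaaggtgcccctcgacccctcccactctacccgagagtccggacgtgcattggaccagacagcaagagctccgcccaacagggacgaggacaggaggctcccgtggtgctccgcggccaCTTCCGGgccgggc
Mrpl34: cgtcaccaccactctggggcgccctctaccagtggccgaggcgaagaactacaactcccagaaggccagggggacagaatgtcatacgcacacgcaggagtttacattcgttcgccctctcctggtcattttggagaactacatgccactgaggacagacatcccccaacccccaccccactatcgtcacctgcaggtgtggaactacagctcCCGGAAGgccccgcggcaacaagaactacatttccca
Mrpl9: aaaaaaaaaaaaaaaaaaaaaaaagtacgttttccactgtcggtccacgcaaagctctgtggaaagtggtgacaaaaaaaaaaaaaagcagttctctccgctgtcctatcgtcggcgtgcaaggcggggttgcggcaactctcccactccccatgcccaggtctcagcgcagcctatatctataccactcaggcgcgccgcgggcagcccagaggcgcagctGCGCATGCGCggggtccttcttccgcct
Mrpl17: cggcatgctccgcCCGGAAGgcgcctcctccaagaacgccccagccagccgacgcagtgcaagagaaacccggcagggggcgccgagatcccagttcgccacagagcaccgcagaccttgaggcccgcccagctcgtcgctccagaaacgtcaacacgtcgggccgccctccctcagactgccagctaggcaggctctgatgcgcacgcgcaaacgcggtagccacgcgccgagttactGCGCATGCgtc
Mrpl55: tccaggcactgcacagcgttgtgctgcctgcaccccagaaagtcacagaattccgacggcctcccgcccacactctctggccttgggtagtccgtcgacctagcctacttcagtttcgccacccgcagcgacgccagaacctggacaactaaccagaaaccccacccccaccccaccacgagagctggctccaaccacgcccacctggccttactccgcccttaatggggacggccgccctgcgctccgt
Mrps6: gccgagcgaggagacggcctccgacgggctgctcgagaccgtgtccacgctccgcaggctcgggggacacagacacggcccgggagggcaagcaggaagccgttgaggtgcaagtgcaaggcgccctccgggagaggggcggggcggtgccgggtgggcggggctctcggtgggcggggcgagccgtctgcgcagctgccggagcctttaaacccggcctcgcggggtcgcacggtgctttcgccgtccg

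Levels of the 78 genes spanned a wide range in each tissue. Mean TPM over the 9 libraries of muscle ran from 9.82 for Mrpl23 to 418 for Mrpl42, with a median of 46.9 over the 78 genes. In adipose tissue it ran from 10.4 for Mrpl1 to 264 for Mrps21, with a median of 61.6. The 10 most abundant genes made up 38.2% of the summed TPM of the 78 in muscle and 35% in adipose tissue. TPM is scaled to transcript length, and the most abundant members had short leading transcripts: the median length was 596 bases for the top 10 of muscle against 1922 bases for the lowest 10.

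In muscle the 4 highest members were Mrpl42 (418 ± 14.0 TPM, SD, n = 9 libraries), Mrps21 (314 ± 27.9), Mrpl30 (197 ± 11.0) and Mrpl33 (175 ± 10.3). Mrpl42 ranged from 404 to 451 TPM and Mrps21 from 279 to 376 TPM, so these neighbours did not overlap, whereas Mrpl30 (182 to 218) and Mrpl33 (160 to 196) did. In adipose tissue the order was Mrps21 (264 ± 35.1), Mrps6 (248 ± 32.2), Mrpl33 (218 ± 18.6) and Mrpl17 (216 ± 17.1), and each overlapped its neighbour over the libraries. The lowest in muscle were Mrpl23 (9.82 ± 3.93), Mrpl19 (10.04 ± 2.24), Mrpl39 (12.6 ± 1.82) and Mrps2 (12.7 ± 0.78). The lowest in adipose tissue were Mrpl1 (10.4 ± 0.99), Mrpl23 (12.2 ± 3.75), Mrpl19 (15.5 ± 5.04) and Mrpl47 (17.1 ± 2.17). Most of these proteins occur in 1 copy per ribosome, and their mRNA levels differed by more than an order of magnitude.

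Muscle and adipose tissue of the vehicle mice were compared on muscle minus adipose values, with the libraries of a mouse matched by replicate number. Over the 9 matched pairs of all regimens, deviations from the group means correlated between -0.10 and 0.15 (median 0.05). The match thus rests on the numbers in the titles. By limma with Benjamini-Hochberg adjustment over 11737 genes, 15 members were higher in muscle and 41 higher in adipose tissue, beside 13% and 73.7% of all genes tested. The median log2 difference of the members was -0.23, against -0.88 for all genes. With TMM scaling, a trimmed-mean scaling between libraries, the direction of the group turned, with 65 members higher in muscle and 7 higher in adipose tissue, beside 38.2% and 38.1% of all genes. Without the genes of the mitochondrial genome, which took 27.6% to 31.3% of TPM in the quadriceps and 12.9% to 13.5% in the fat of vehicle mice, the counts were 28 and 23, beside 17.6% and 64.8% of all genes. Scaling shifts all members by nearly the same amount, and TMM scaling moved their median from -0.23 up to 0.78. The 15 that were called higher in muscle could therefore only stay above 0, which is no check of them. Of the 41 called higher in adipose tissue 7 stayed below 0.

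Mrps6, a small subunit protein with a bacterial counterpart, stood apart. It was at 35.6, 31.2 and 32.0 TPM in the quadriceps of the 3 vehicle mice and at 260, 294 and 302 TPM in adipose tissue, 8.65-fold higher in adipose tissue (log2 difference -3.07 ± 0.10, SE, adjusted p = 1.01e-09, and -2.07 under TMM scaling). Nearly all of it came from 1 protein-coding transcript (99.7% of the gene's TPM in quadriceps and 98.7% in fat). The gene spans chr16:92058270-92112227 on the plus strand (GRCm38) and overlaps Slc5a3, the myo-inositol transporter gene, on the same strand. Slc5a3 itself was listed between 0.51 and 1.31 TPM in quadriceps and between 13.0 and 20.3 TPM in fat, a log2 difference of -3.00 ± 0.15, and how far reads of one gene were assigned to the other was not tested.

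Next in adipose tissue came Mrpl20, a bacterial-type protein of the large subunit, at 73.3 ± 7.24 TPM in muscle against 236 ± 14.6 TPM (SD, n = 3 mice). Mrpl40, a mitochondria-specific protein, followed at 27.3 ± 2.50 against 72.9 ± 6.11 TPM, Mrpl41, another such protein, at 29.96 ± 4.07 against 75.6 ± 1.4, and Mrpl17 at 95.3 ± 8.55 against 237 ± 12.9. Their log2 differences were -1.67, -1.38, -1.31 and -1.31, each with an adjusted p of 2.63e-07 or less by limma, and under TMM scaling they were -0.66, -0.38, -0.31 and -0.29.

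In the other direction Mrpl42, a mitochondria-specific protein of the large subunit, led with 430 ± 18.04 TPM in muscle against 194 ± 12.0 TPM in adipose tissue (log2 difference 1.15 ± 0.05, adjusted p = 7.65e-09). Mrpl14, which sits at the face of the large subunit, was at 164 ± 11.0 against 91.9 ± 3.68 TPM (0.83 ± 0.07). Its protein-coding transcript stood at 75.3 TPM (quadriceps) and 62.2 TPM (fat) over 9 libraries, while a processed transcript without a coding label was at 72.5 and 17.98 TPM. On protein-coding transcripts alone Mrpl14 was no longer called (0.26, adjusted p = 0.0586). Mrps36, since recognised as a subunit of the 2-oxoglutarate dehydrogenase complex, was at 153 ± 3.11 against 91.0 ± 2.08 TPM (0.75 ± 0.08), Mrpl15 at 97.5 ± 3.13 against 57.8 ± 3.15 TPM (0.74 ± 0.07) and Mrpl47 at 28.2 ± 4.21 against 18 ± 1.31 TPM (0.61 ± 0.11). In each of these 5 genes every muscle value of the vehicle mice was above every adipose value.

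**Figure D2:**
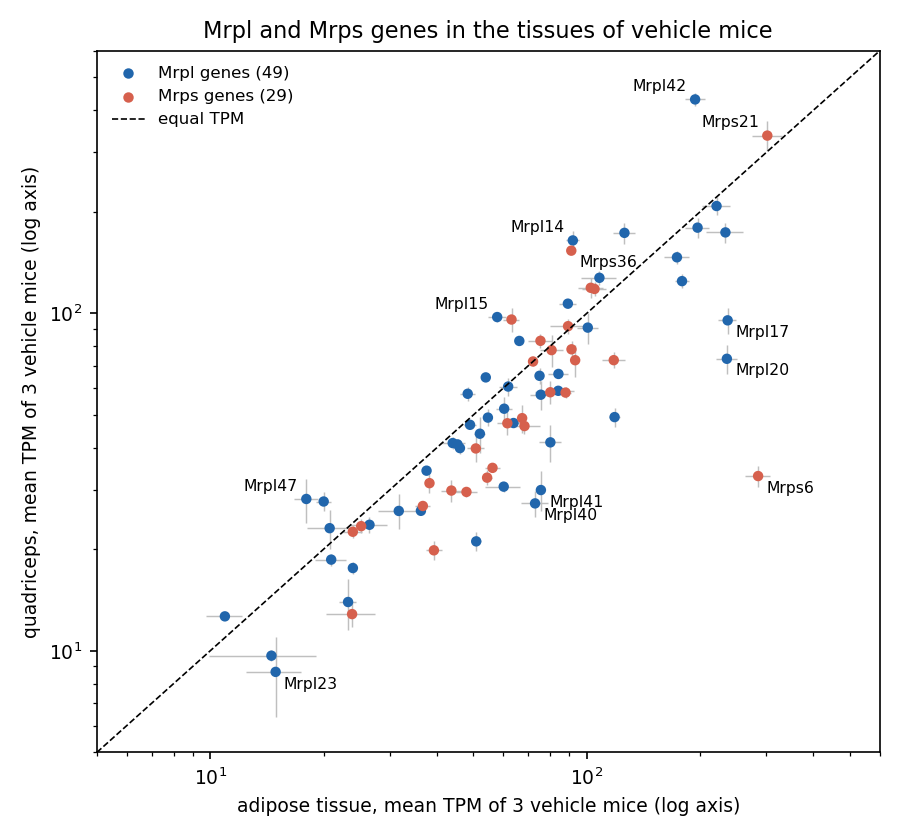
Mean TPM of each of the 78 genes in adipose tissue (horizontal log axis) and quadriceps (vertical log axis) of the 3 vehicle mice, with SD bars and a dashed line of equal TPM. Most points lie near the line, 8 of 78 differ by more than 1 on the log2 scale, and Mrps6 lies farthest from it at 33.0 TPM in muscle and 285 TPM in adipose tissue.

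Summed over the 78 genes, both regimens lay below vehicle in both tissues. In muscle the sum was 5710, 5444 and 5354 TPM in vehicle mice, 5164, 5178 and 5094 TPM after weekly prednisone and 5077, 4989 and 4956 TPM after daily prednisone. In adipose tissue it was 6510, 6163 and 6345 TPM in vehicle mice, 5222, 5666 and 5640 TPM after weekly prednisone and 5681, 5875 and 5552 TPM after daily prednisone. The means were 6.49% and 9.0% lower in muscle and 13.1% and 10.04% lower in adipose tissue, for weekly and daily prednisone. No treated library reached the vehicle range in either tissue, and weekly and daily libraries overlapped in adipose tissue only. Counted without the mitochondrial genome, whose share of TPM in adipose tissue was 14.5% to 14.8% after weekly and 15.3% to 16.9% after daily prednisone, the sums were 5.33% and 10.9% lower in muscle and 11.6% and 6.71% lower in adipose tissue. On that scale 1 weekly library of muscle (7525 TPM) met the lowest vehicle library (7523 TPM). The sums carry no test, since the genes were chosen as a group. In bulk tissue fewer cells of a type and less of an RNA per cell cannot be told apart.

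**Figure D3:**
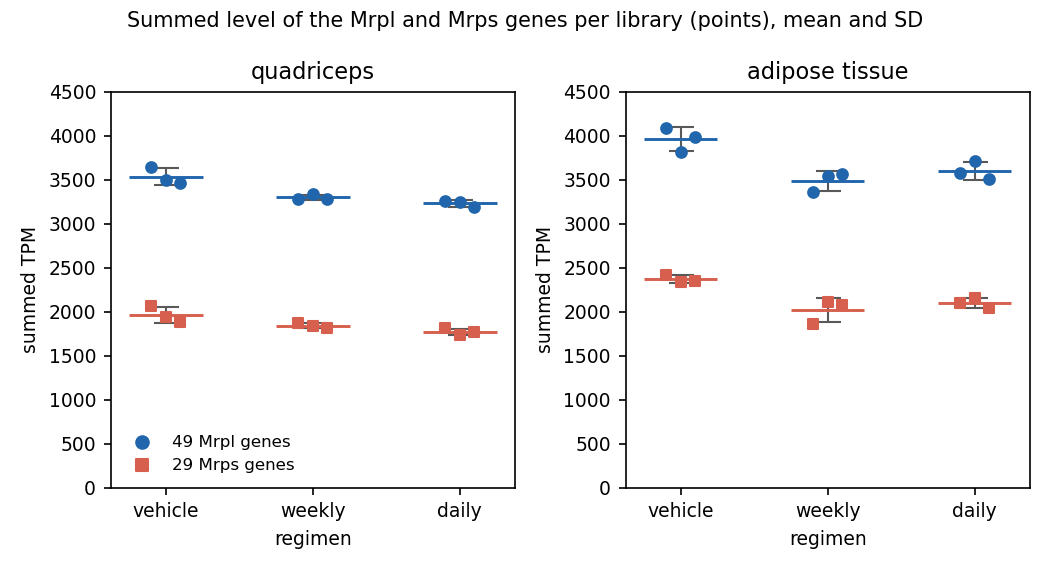
Summed TPM per library (vertical axis) of the 49 Mrpl and 29 Mrps genes by regimen (horizontal axis) in quadriceps and adipose tissue, with group mean (coloured line) and SD (bars). The Mrpl sum of adipose tissue is 3966 TPM in vehicle mice, 3491 after weekly and 3603 after daily prednisone, and in each tissue the treated libraries lie below the vehicle libraries for both sets.

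After daily prednisone in muscle 12 of 78 members were called lower, at an adjusted p under 0.05. By limma on log2(TPM + 1) with Benjamini-Hochberg adjustment over 12246 genes, the 12 fell and none rose, that is 15.4%, beside 11.8% of all genes tested that were called lower and 13.7% called either way. The share is thus near that of all genes. The median log2 fold change was -0.14 for the members and -0.09 for all genes tested, and 66 of 78 members lay below 0 (84.6%, beside 68.4% of all genes). In 36 members every daily library was below every vehicle library (46.2%, beside 27.8%). Under TMM scaling the medians were -0.04 and 0.00 and 3 members were called (3.85%, beside 3.64% of all genes called lower). Without library 3 of every group 0 of the 78 were called, and leaving out 1 library gave 2 calls without daily 3, 4 without vehicle 2, 6 without vehicle 1 and 8 to 14 otherwise. Over all 12246 genes, those called lower went from 1440 to 3 without library 3 of every group. They went to 444 without daily 3, 728 without vehicle 2 and 812 without vehicle 1.

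Mrps26, a mitochondria-specific protein of the small subunit, fell most. It was at 43.9, 37.6 and 37.8 TPM in vehicle mice and at 30.6, 29.4 and 28.4 TPM after daily prednisone, so every treated library was below every control. Its log2 fold change was -0.42 ± 0.07 (SE, limma adjusted p = 0.00771), it was called in each of 9 fits that left out 1 library, and it stayed called under TMM scaling (-0.32, adjusted p = 0.0283). Most of its TPM in muscle (92.8%) was assigned to a transcript annotated as a retained intron, and on protein-coding transcripts alone it was not called (-0.23, adjusted p = 0.109).

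Among proteins with bacterial counterparts, Mrpl34, a short protein of the large subunit, was at 99.1, 93.0 and 80.1 TPM in vehicle mice and at 72.8, 69.7 and 67.4 TPM after daily prednisone (-0.37 ± 0.08, adjusted p = 0.0197). Mrpl15 was at 99.5, 99.1 and 93.9 TPM in vehicle mice and at 74.7, 79.7 and 75.6 TPM after daily prednisone (-0.34 ± 0.05, adjusted p = 0.00404). In both genes every daily library was below every vehicle library, with a gap in Mrpl34 that was smaller than the spread of its vehicle libraries, and Mrpl15 was called in each of 9 fits that left out 1 library. The leading transcript of Mrpl15 (66.3% of its TPM in muscle) has no coding label, and its coding transcripts alone were at -0.04 (adjusted p = 0.824). Mrpl15 was also the single member that differed between regimens in muscle: weekly libraries were at 90.9, 94.4 and 88.1 TPM, all above the daily ones (0.25 ± 0.05, adjusted p = 0.0435, beside 0.915% of genes called higher). That difference was called in 1 of 9 fits with a library left out, and not under TMM scaling (adjusted p = 0.0925).

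Mrpl57 and Mrpl55, both mitochondria-specific proteins of the large subunit, fell as well. Mrpl57 was at 19.5, 18.4 and 18.04 TPM in vehicle mice and at 15.5, 14.1 and 13.8 TPM after daily prednisone (-0.35 ± 0.07, adjusted p = 0.0122). Mrpl55 was at 56.6, 52.0 and 48.0 TPM against 46.6, 40.6 and 40.7 TPM (-0.28 ± 0.08, adjusted p = 0.0365). The lowest vehicle library of Mrpl55 lay close above its highest daily library, and it was called in 4 of 9 fits with a library left out, Mrpl57 in 8.

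Of the rest, Mrps24, whose bacterial counterpart lines the mRNA entry, was at 124, 124 and 110 TPM in vehicle mice and at 99.6, 96.2 and 98.7 TPM after daily prednisone (-0.27 ± 0.05, adjusted p = 0.0127). Mrps16, a small subunit protein whose mutation in people causes a defect of mitochondrial translation, was at 122, 121 and 111 TPM against 106, 97.5 and 97.5 TPM (-0.23 ± 0.06, adjusted p = 0.0274). Mrpl9 was at 46.1, 46.7 and 47.4 TPM against 39.0, 41.8 and 38.4 TPM (-0.23 ± 0.05, adjusted p = 0.0174). The remaining 4 calls, named after their values were seen, were Mrpl2, Mrpl14, Mrps17 and Mrpl37, with falls between 0.20 and 0.23 on the log2 scale. Across the 12 calls, only Mrpl15, Mrpl57 and Mrps26 stayed called under TMM scaling, and 10 were called on protein-coding transcripts. On that basis, chosen after the data were seen, 15 of 77 members were called lower (19.5%, beside 15.5% of all genes tested on that basis) and 2 higher (2.6%, beside 2.24%): Mrpl51 (0.25, adjusted p = 0.0226) and Mrps33 (0.26, adjusted p = 0.00658), which were at -0.11 and 0.10 with all transcripts.

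Weekly prednisone in muscle left no member called by limma (smallest adjusted p = 0.131), beside 0.049% of all genes called. At an unadjusted limma p under 0.05 stood 25 of 78 members (24 of them lower), beside 1891 of all 12246 genes. The median log2 fold change was -0.09, near that of all genes (-0.07), and 62 of 78 lay below 0, beside 70.5% of all genes (8630 of 12246). In 24 members every weekly library was below every vehicle library (30.8%, beside 19.3%). Mrps26 again had the lowest value, with 32.6, 33.2 and 30.2 TPM after weekly prednisone, below all 3 vehicle libraries (-0.30 ± 0.07, adjusted p = 0.158). Both comparisons use the same vehicle libraries.

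In adipose tissue most members lay below vehicle after weekly prednisone, while most genes of the table lay above it. By limma 8 of 78 fell and none rose (10.3%), beside 1.72% of all 14150 genes tested that were called lower and 5.72% that were called higher. The median log2 fold change of the members was -0.18, while that of all genes was 0.13, and 72 members lay below 0 (92.3%, beside 29.7%). In 38 members every weekly library was below every vehicle library (48.7%, beside 7.88%). TMM scaling, which takes the shift of all genes to 0.00, gave a median of -0.32 and 18 members called (23.1%, beside 4.65% of all genes called lower). The number of calls changed with single libraries, as did that over all genes. Of the members, 0 were called without vehicle 3, without weekly 3 or without library 3 of every group. Their median log2 fold change was then -0.17, -0.18 and -0.17, with 68, 72 and 70 of 78 below 0. There were 2 calls without vehicle 2 or weekly 1, 3 without vehicle 1, daily 1 or daily 3, 9 without weekly 2 and 12 without daily 2. Over all 14150 genes, those called lower went from 243 to 8 without vehicle 3 and 8 without weekly 3. They went to 0 without library 3 of every group and to 305 without daily 2. Without the 3 libraries that held over 100 TPM of Ckm the weekly group keeps 1 library (weekly 1) and the daily group 2. The median log2 fold change was then -0.19 for the members and 0.20 for all genes, and calls are not given for a group of 1 library.

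Among the called members Mrpl55 had the largest fall, at 63.6, 57.6 and 60.0 TPM in vehicle mice and 40.1, 45.4 and 42.1 TPM after weekly prednisone (-0.50 ± 0.07, adjusted p = 0.0107); Mrpl23, at -0.54 ± 0.27, was lower still but was not called (adjusted p = 0.198) and its groups overlapped. Mrps34, a mitochondria-specific small subunit protein whose loss lowers the small subunit's ribosomal RNA, was at 92.4, 88.7 and 92.3 TPM against 69.3, 72.1 and 68.6 TPM (-0.38 ± 0.06, adjusted p = 0.0155). Both had wide gaps between the groups and were called in 7 of 9 fits with a library left out. Mrps34 overlaps Nme3 on the same strand, and how reads were divided between them was not tested.

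Mrps21, the most abundant member in adipose tissue, was at 332, 293 and 280 TPM in vehicle mice and at 211, 241 and 248 TPM after weekly prednisone (-0.37 ± 0.08, adjusted p = 0.0353). Mrps6 was at 260, 294 and 302 TPM against 200, 235 and 230 TPM (-0.36 ± 0.08, adjusted p = 0.0288), while its neighbour Slc5a3 was not called (-0.19 ± 0.14, adjusted p = 0.386). Mrpl12, a protein of the stalk that recruits translation factors and also binds the mitochondrial RNA polymerase, was at 189, 165 and 166 TPM against 126, 141 and 145 TPM (-0.34 ± 0.09, adjusted p = 0.0497). In all 3 genes every weekly library lay below every vehicle library.

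Mrpl14 was at 92.5, 95.2 and 87.9 TPM in vehicle mice and at 71.7, 70.4 and 79.4 TPM after weekly prednisone (-0.31 ± 0.07, adjusted p = 0.0394). Mrps26 was at 52.7, 47.7 and 51.9 TPM against 39.8, 39.7 and 44.2 TPM (-0.29 ± 0.08, adjusted p = 0.0468). Mrpl17 was at 250, 224 and 236 TPM against 207, 202 and 201 TPM (-0.22 ± 0.06, adjusted p = 0.0466). These 3 and Mrpl12 were each called in 1 of 9 fits with a library left out, and Mrpl14 and Mrps26 were not called on protein-coding transcripts alone (adjusted p = 0.181 and 0.299).

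Daily prednisone in adipose tissue gave values below vehicle but no call. By limma 0 of 78 passed (smallest adjusted p = 0.264), beside 0.00707% of all genes called either way. At an unadjusted limma p under 0.05 stood 21 members, all of them lower, beside 1305 of all 14150 genes in either direction. The median log2 fold change was -0.13 against 0.01 for all genes, and 71 members lay below 0 (91.0%, beside 48.3%). In 28 members every daily library was below every vehicle library (35.9%, beside 7.93%). Mrpl55 was at 49.1, 45.8 and 47.0 TPM, Mrps34 at 77.2, 78.1 and 70.8 TPM and Mrps6 at 241, 234 and 235 TPM after daily prednisone, each below its 3 vehicle libraries.

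Weekly and daily prednisone were not told apart in adipose tissue: 0 members were called by limma (smallest adjusted p = 0.256), beside 0.311% of all genes. At an unadjusted limma p under 0.05 stood 4 of 78 members, beside 2242 of all 14150 genes. The median was -0.04 with 54 members below 0 (69.2%, beside 25.7%), and -0.17 with 76 below 0 under TMM scaling.

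**Figure D4:**
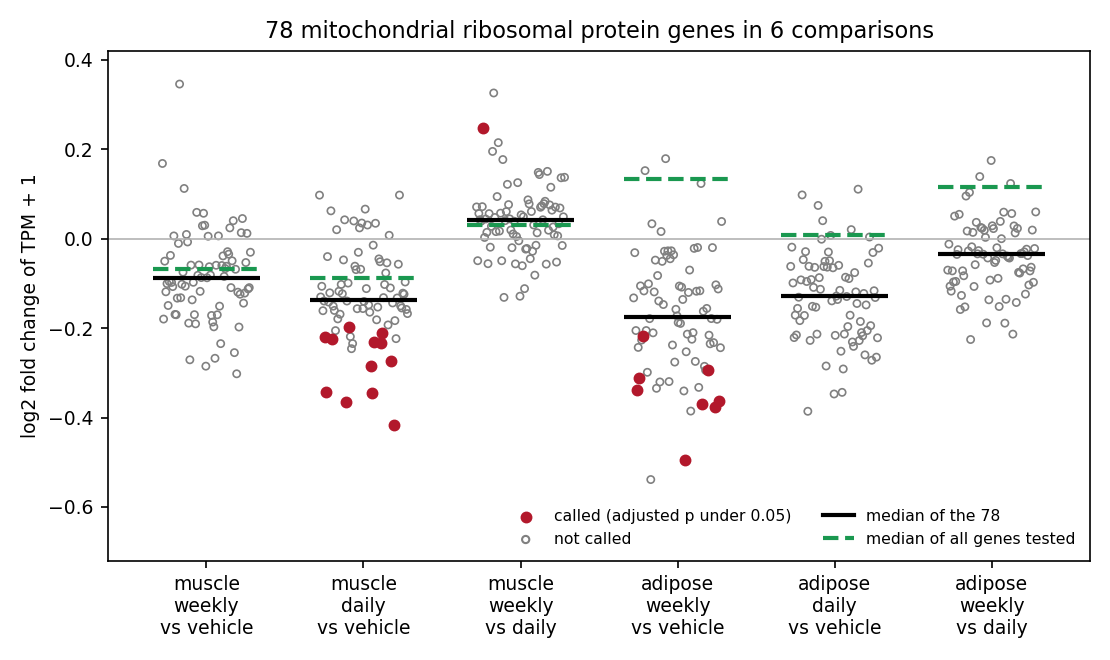
Log2 fold change of TPM + 1 (vertical axis) of each of the 78 genes in 6 comparisons (horizontal axis), with called genes filled, the median of the 78 as a solid line and that of all genes tested as a dashed line. In adipose tissue after weekly prednisone the 2 medians lie on opposite sides of 0 at -0.18 and 0.13, and in muscle after daily prednisone they lie at -0.14 and -0.09.

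The effects of prednisone in the 2 tissues were compared on the same muscle minus adipose values, matched by replicate number. For the difference between the tissues in the weekly effect 0 members were called by limma (smallest adjusted p = 0.0738), beside 2.56% of 11737 genes. At an unadjusted limma p under 0.05 stood 9 of 78 members, beside 3245 of the 11737 genes. The median difference, muscle minus adipose tissue, was 0.09 for the members and -0.19 for all genes. These values depend on the scaling. With TMM scaling 0 members were again called, and the medians were 0.28 and -0.01. On that scale 76 of 78 members lay above 0, and 44 had an unadjusted limma p under 0.05, beside 2222 of 11737 genes. For the daily effect 0 were called (smallest adjusted p = 0.307), beside 0.0596% of genes, with medians of 0.00 and -0.09. At an unadjusted limma p under 0.05 stood 1 member, beside 1660 of the 11737 genes. TMM scaling gave 0 calls for the daily effect, medians of 0.09 and -0.01, and 6 members at that p beside 1415 genes. So a call in 1 tissue is not shown to be particular to it. Of the 12 members called in muscle after daily and the 8 called in adipose tissue after weekly prednisone, 3 were the same (Mrpl14, Mrpl55 and Mrps26). They make up 25% of the first list, where 10.3% of all 78 members were called in adipose tissue. They make up 37.5% of the second, where 15.4% of all 78 were called in muscle. The same overlap over all genes was not counted, and the overlap of the lists was not tested.

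**Figure D5:**
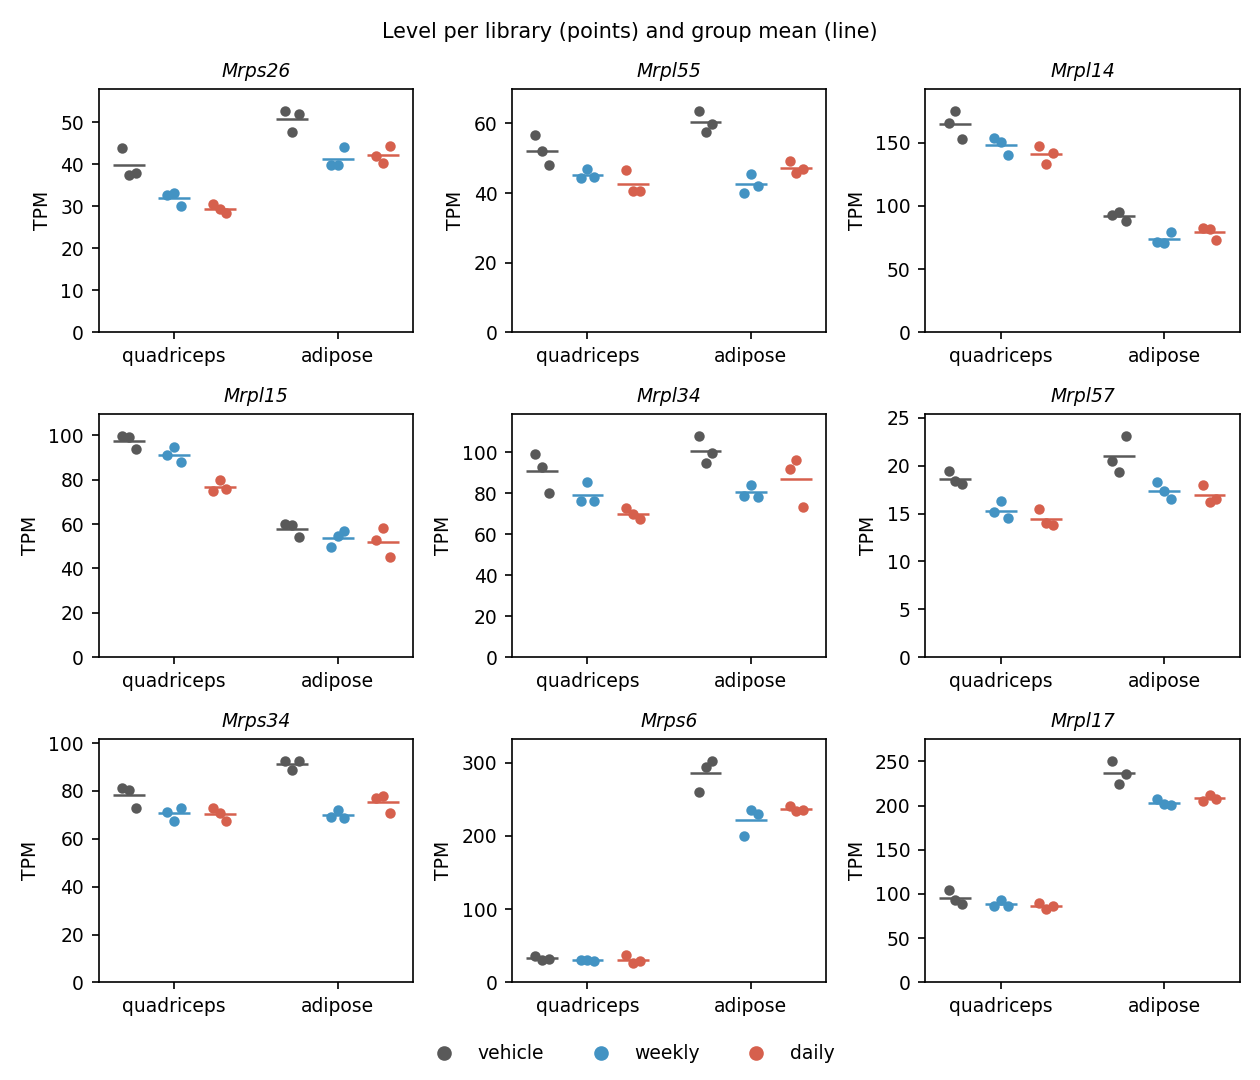
TPM of 9 called genes (vertical axes, from 0) in each library (points) with group means (lines), by tissue and regimen (colours). Mrps26, Mrpl55 and Mrpl14 were called in both tissues, Mrpl15, Mrpl34 and Mrpl57 in muscle after daily prednisone, and Mrps34, Mrps6 and Mrpl17 in adipose tissue after weekly prednisone.

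Grouped by place in the ribosome, the calls were spread over both subunits. All counts of falls in lists stand beside 11.8% of all genes called lower in muscle after daily and 1.72% in adipose tissue after weekly prednisone. Of 28 large subunit proteins with a bacterial counterpart, 5 fell in muscle after daily prednisone and 3 in adipose tissue after weekly prednisone, with median log2 fold changes of -0.14 in each. Of 23 mitochondria-specific proteins of the large subunit, 3 and 1 fell (medians -0.13 and -0.16). Of 16 small subunit proteins with a bacterial counterpart, 3 and 2 fell (-0.16 and -0.22), and of 10 mitochondria-specific ones 1 and 2 (-0.13 and -0.22). In muscle the shares ran from 10% to 18.8%, near that of all genes, and in adipose tissue from 4.35% to 20%. Mrps30 and Mrps18a are counted here with the large subunit, where their proteins sit, and Mrps36 with neither.

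Several members with a known place or function were not called. Mrpl10 and Mrpl11, which form the base of the stalk that carries Mrpl12, were at -0.13 and -0.11 in muscle after daily and at -0.03 and -0.21 in adipose tissue after weekly prednisone. Mrpl45, which holds the ribosome at the inner membrane, stood near 0 in all 4 comparisons with vehicle (-0.04 to 0.03). Mrpl58, a peptidyl-tRNA hydrolase that frees stalled ribosomes, was at -0.01 in muscle and -0.21 in adipose tissue. Mrps12, of the decoding centre, was at -0.15 and -0.22, and Mrps27, a pentatricopeptide repeat protein, at -0.18 and -0.22. The 3 Mrps18 paralogues differed in adipose tissue after weekly prednisone, at -0.02 for Mrps18a, -0.33 for Mrps18b (adjusted p = 0.0539) and -0.12 for Mrps18c, and these differences among them were not tested.

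The other genes of mitochondrial translation were taken from lists. Calls in lists, here and below, come from the fit with all libraries and without TMM scaling. Over all genes, those called lower in muscle after daily prednisone went from 1440 to 446 under TMM scaling and to 3 without library 3 of every group. In adipose tissue after weekly prednisone they went from 243 to 658 and to 0. Of 15 translation factors and RNA-binding proteins 5 fell in muscle after daily prednisone (33.3%, beside the 11.8% of all genes), among them the elongation factors Gfm1 (-0.24) and Tufm (-0.19), the ribosome recycling factor Gfm2 (-0.35) and Lrpprc, which stabilises mitochondrial mRNA (-0.35). In adipose tissue after weekly prednisone only Slirp, the partner of Lrpprc, fell (-0.46, adjusted p = 0.0437). Of 26 genes of ribosome assembly 3 fell in muscle (Malsu1, Mtg2 and Mpv17l2; 11.5%, a share like that of all genes) and 2 in adipose tissue (7.69%, beside 1.72%), Malsu1 (-0.61) and Mpv17l2 (-0.34). Malsu1 binds Mrpl14 on the large subunit and keeps the subunits apart. Of 22 genes of aminoacyl-tRNA synthesis 5 fell in muscle (22.7%), among them Iars2 (-0.32), and 2 in adipose tissue (9.09%), with Lars2 at 449 TPM in vehicle and 200 TPM in weekly mice (-1.16 ± 0.21, adjusted p = 0.0188). Whether the reads assigned to Lars2 all came from that gene was not tested, so its level and fall are uncertain. Of 5 mitochondrial ribosomal proteins with other names none was called in muscle and Aurkaip1 fell in adipose tissue (-0.24, adjusted p = 0.0468). The medians of the translation factors and of the assembly genes in adipose tissue were 0.01 and 0.03, against -0.18 for the 78 members.

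Lists outside mitochondrial translation gave a yardstick. Of 13 other mitochondrial proteins 7 fell in muscle after daily prednisone (53.8%), among them Tomm20 of the import channel (-0.53), the porin Vdac1 (-0.32) and citrate synthase Cs (-0.22), and 0 were called in adipose tissue after weekly prednisone (median -0.12). Of 86 cytosolic ribosomal protein genes tested in muscle 4 rose and 9 fell after daily prednisone (median -0.03). Of 85 in adipose tissue 3 rose and 7 fell after weekly prednisone, with a median of -0.15 that is close to the -0.18 of the mitochondrial ribosomal proteins. Over all genes, 234 of 12246 were called higher in muscle after daily and 5.72% in adipose tissue after weekly prednisone. Of 10 regulators of mitochondrial genes Esrra, a nuclear receptor that raises such genes, fell in muscle (-0.34, adjusted p = 0.00742) and Myc rose (0.57, adjusted p = 0.0119), while Gabpb2, a partner of GABPA, rose in adipose tissue after weekly prednisone (0.58, adjusted p = 0.0464). Of the 13 mRNAs of the mitochondrial genome 2 rose and 3 fell in muscle after daily prednisone (median 0.05). In adipose tissue 1 rose after weekly (median 0.12) and 0 were called after daily prednisone (median 0.27). Of genes of mitochondrial DNA copying and transcription, 1 of 10 fell in muscle after daily prednisone (median -0.18). In adipose tissue 0 of 11 were called after weekly prednisone (median 0.02).

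Summed markers of other cell types differed between some of the groups. In muscle the summed TPM of 10 macrophage genes was 214 to 311 in vehicle mice, 225 to 232 after weekly and 366 to 561 after daily prednisone. In adipose tissue the sum of 6 stromal genes was 1704 to 1743 in vehicle mice and 1984 to 2518 after weekly prednisone, that of 6 endothelial genes 224 to 237 and 257 to 357, and that of 10 adipocyte genes 38564 to 39368 and 36852 to 37745. The macrophage sum of adipose tissue was 1973 to 2646 in vehicle mice and 2557 to 2981 after weekly prednisone, and the sum of 6 mesothelial genes 50.4 to 78.8 and 78.1 to 136. The vehicle and weekly ranges of both these sums overlapped. After daily prednisone the adipose sums were 1579 to 1930 (stromal), 191 to 242 (endothelial), 2584 to 2679 (macrophage) and 54.5 to 68.2 (mesothelial). Each of these overlapped vehicle, while the adipocyte sum, 35316 to 38205, lay below it. The sum of 10 myofibre genes in adipose tissue was 264 to 400 in vehicle mice, 290 to 1818 after weekly and 277 to 1165 after daily prednisone. No defining marker of the adipose lists was at 0, and in muscle the mesothelial Upk3b and Upk1b were at 0. The part of these cells in the falls of the ribosomal protein genes was not tested.

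Transcript assignment bears on several members. The 78 genes held 323 transcripts, of which 318 were found in GENCODE M21 and 160 are labelled protein coding there. Coding transcripts carried a median of 96.3% of a member's TPM in muscle and 94.6% in adipose tissue, and 74 of 78 had the same leading transcript in both tissues. In 15 members of muscle and 14 of adipose tissue the leading transcript was not labelled protein coding, Mrps26, Mrpl15 and Mrps24 among them. The genes lie on 17 chromosomes, most on chromosome 11 with 11 members, 18 have another coding gene head to head within 500 bases, and 4 (Mrpl53, Mrps24, Mrps34 and Mrps6) overlap a coding gene on the same strand.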

How the data were processed

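The deposited table gives TPM per transcript for 18 libraries. Per the submitters' processing notes the tools include Trimmomatic, HISAT2 and kallisto and the build is mm10; their versions, roles and the transcript annotation are not given in the sources used here. No column was left unused (0). TPM was summed per gene symbol, genes at 1 TPM or more in 3 libraries of a tissue were kept, and log2(TPM + 1) was fitted with limma 3.58.1 (R 4.3.3; lmFit, eBayes with trend), 9 libraries per tissue, with Benjamini-Hochberg adjustment over all genes and calls at 0.05. Fold changes on this scale understate those of low genes. Tissues were compared on muscle minus adipose values per mouse, matched by replicate number. The fit was tested on simulated data. Members and lists were chosen with earlier results of these data known. Named members were the called ones with separate groups (up to 8 each way), extremes of level and of tissue difference, and a fixed panel. Sequences come from RefSeq GRCm38.p6, transcript types from GENCODE M21.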

Additional observations from a re-analysis of the deposited data

How the results depend on the processing

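Of the 21 single calls between regimens none changed direction in any alternative, and 236 of 407 values stayed called. Between the tissues 34 of the 41 members called higher in adipose tissue turned direction under TMM scaling. Only the 2 groups compared gave 7 members called in muscle after daily and 2 in adipose tissue after weekly prednisone, against 12 and 8. Over all genes, 1105 of 12246 and 88 of 14150 were then called lower, against 1440 and 243. TMM scaling gave 3 and 18, beside 3.64% and 4.65% of all genes called lower. Leaving out genes of the mitochondrial genome gave 20 and 5 (25.6% and 6.41%), beside 14.9% and 1.31%. Leaving out library 3 of every group gave 0 and 0, beside 3 of 12246 and 0 of 14150 genes called lower. Without a low-value filter 2 were called in adipose tissue, and 19 without the libraries rich in Ckm, a fit with 1 weekly library. The fit with the replicate block gave 10 and 3, beside 1179 of 12246 and 140 of 14150 genes called lower. Within a tissue the libraries share only a number: deviations of same-numbered libraries correlated between -0.12 and 0.11 (median -0.03) for muscle and between -0.06 and 0.19 (0.03) for fat, and 5 and 6 of 9 libraries correlated best with their own number. For Mrpl15, the 1 call between weekly and daily prednisone in muscle, 0 were left with no filter, the 2 groups alone, the replicate block, TMM scaling, library 3 of every group left out, or protein-coding transcripts only, an alternative chosen after seeing the data. Leaving out 1 library gave 2 to 14 calls in muscle daily, 0 to 12 in adipose weekly and 0 to 1 in muscle weekly against daily. Over all genes it gave 444 to 1473 called lower in muscle daily and 8 to 305 called lower in adipose weekly. In muscle weekly against daily it gave 7 to 110 genes called higher. Leaving out 1 mouse, both tissues, gave 51 to 60 of the 78 members between tissues, against 56 with all mice. Without mouse 3 of every regimen 12 members were higher in muscle and 34 higher in adipose tissue, beside 1349 and 8078 of 11737 genes. A group left with 2 libraries shares the spread of the others. The tissue comparison without the block of mice gave 15 and 44 calls, beside 1534 and 8641 of 11737 genes. Pseudocounts of 0.1 and 5 moved no count of members past 1.5 times. Depth cannot be judged from TPM, and with 3 libraries per group the smallest regimen change called was a fall by 0.20 on the log2 scale.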

Other observations

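Mrpl23, the member with the lowest level in muscle, shares its name with Mrpl23-ps1, which was set aside as a pseudogene but stood far higher, at 147 ± 8.39 TPM (SD, n = 3) in muscle and 91.0 ± 7.59 TPM in adipose tissue of vehicle mice against 8.66 ± 2.30 and 14.9 ± 2.46 TPM for Mrpl23. Their sum per library was 128 to 163 TPM in muscle and 76.8 to 111 TPM in adipose tissue. Mrpl48-ps was at 14.7 ± 2.78 TPM in muscle and 20.2 ± 1.93 TPM in adipose tissue of vehicle mice, and Mrpl48 at 25.97 ± 3.09 and 31.7 ± 3.8 TPM. How reads were divided between these genes and their copies was not tested, so the levels and fold changes of Mrpl23 and Mrpl48 are uncertain; neither was called after a regimen. Mrpl32 was represented by 1 transcript, labelled as a target of nonsense-mediated decay, at 46.9 TPM in muscle and 61.8 TPM in adipose tissue.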
